A study of Mus musculus with 9 samples.

Results

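Transcript levels of 45 genes that burn, build, store and carry long-chain fatty acids were followed in RAW264.7 cells. The genes were taken from the deposited tables by symbol, from a list of enzymes and carriers, and are 45 of the 43629 genes in the tables. Of these, 22 serve fatty acid oxidation, 11 serve synthesis, elongation and desaturation, and 12 serve activation, storage and uptake. All 9 libraries came from this line of macrophage-like mouse cells, which was established from a tumour induced by the Abelson virus. They form 3 groups of 3: cells given sodium butyrate (NaBu), the salt of a short-chain fatty acid that inhibits histone deacetylases, and then lipopolysaccharide (LPS), in the order the series' design states; cells given LPS, the endotoxin of Gram-negative bacteria, alone; and untreated control cells. No source used here gives the dose or time for the RNA libraries, and no cells given NaBu without LPS were analysed here. The design calls the replicates biological without saying that they were separate cultures, and the p-values therefore rest on a spread between libraries that may be technical. In bulk RNA, fewer cells of a type and less RNA per cell cannot be told apart.

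Long-chain fatty acids are activated to acyl-CoA, passed into mitochondria as carnitine esters and shortened there by repeated rounds of dehydrogenation, hydration, a further dehydrogenation and thiolysis, with electrons handed to the respiratory chain through the flavoproteins. Synthesis runs the other way in the cytosol, from citrate through acetyl-CoA and malonyl-CoA to palmitate, which is then elongated and desaturated, and the malonyl-CoA made on the way inhibits entry into mitochondria. Macrophages are known for taking up lipid, for holding it in droplets and for changing their use of fatty acids between inflammatory and alternative activation.

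Levels are given as normalised counts, that is, the reads of a gene divided by one size factor for each library. Gene length does not enter them, and different genes are therefore compared only per kilobase of annotated exon. The ± after a level is the SD over 3 libraries and the ± after a log2 change is its standard error, and a gene was called when the p-value of limma, adjusted over all 14808 genes tested, was under 0.05. Where changes of a gene are given without naming the groups, they stand in the order LPS+NaBu against LPS, LPS+NaBu against control, LPS against control. The libraries held 37.6 to 64.4 M (M, 1e6) recovered reads, and their log2 values correlated across genes at 0.987 to 0.993 within groups and at 0.890 to 0.946 between groups, where genes are not independent replicates. The sum of all values was 43.1 to 44.3 M in LPS+NaBu libraries, 52.5 to 53.4 M in LPS libraries and 44.95 to 45.5 M in control libraries. Scaling the libraries to the same sum therefore shifted the median gene by 0.28 on the log2 scale in LPS+NaBu against LPS, by 0.05 in LPS+NaBu against control and by -0.23 in LPS against control, and calls that turn on this are given with the gene or in the closing section. The 3 comparisons share libraries, so the changes of a gene in them are not independent.

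Of the 45 genes, 43 passed the filter on low values. In LPS+NaBu against LPS, 25 were called higher and 17 lower, where 40.2% of all genes tested were called higher and 37.8% lower. At least 2-fold changes were called for 13 higher and 8 lower, with 21.4% and 16.0% of all genes past the same rule. In LPS+NaBu against control, 20 were called higher and 17 lower (all genes, 40.9% and 35.1%), and 10 and 8 of these changed at least 2-fold (all genes, 20.7% and 13.5%). In LPS against control, 8 were called higher and 24 lower (all genes, 25.2% and 30.8%), and 2 and 5 changed at least 2-fold (all genes, 8.41% and 6.02%). With the libraries scaled to the same sum, the last comparison had 5 higher and 33 lower, with 2273 higher and 7074 lower among all genes against 3739 and 4568 with the size factors. The same scaling gave 27 higher and 12 lower in LPS+NaBu against LPS, with 7417 higher and 4132 lower among all genes against 5956 and 5602.

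The stretches of DNA just before the start sites of a few of the genes are shown first, as reference points for the results that follow: Cpt1a and the paired genes Hadha and Hadhb among the oxidation genes that were higher with LPS+NaBu, Acadm as the oxidation gene that fell most with LPS, Fasn as the gene with the largest fall, and Acacb as the synthesis gene with the largest rise. Sequences are those of the RefSeq promoter table (build GRCm38.p6), which held 33 of the 45 genes. Each was found once on its chromosome in GRCm39, whose coordinates are given, and bases inside any annotated exon were left off. The stretches of Cpt1a, Fasn, Acacb and the Hadha-Hadhb pair lie inside introns of longer annotated transcripts. Capitals mark, on either strand, the GC box GGGCGG, the CCAAT box, and the nuclear receptor half-site AAGGTCA. All are written 5′ to 3′ on the strand of the gene, and the first on the plus strand.
Hadha-Hadhb (chr5:30360188-30360235, plus strand): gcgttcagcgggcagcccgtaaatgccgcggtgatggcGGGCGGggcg
Cpt1a (chr19:3373209-3373270, plus strand): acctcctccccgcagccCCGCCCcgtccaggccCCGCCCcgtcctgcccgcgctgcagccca
Acadm (chr3:153650318-153650530, minus strand): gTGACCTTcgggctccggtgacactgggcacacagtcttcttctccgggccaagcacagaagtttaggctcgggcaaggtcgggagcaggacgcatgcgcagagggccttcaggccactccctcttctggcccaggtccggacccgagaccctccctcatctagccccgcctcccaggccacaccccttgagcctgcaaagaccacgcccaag
Fasn (chr11:120715403-120715623, minus strand): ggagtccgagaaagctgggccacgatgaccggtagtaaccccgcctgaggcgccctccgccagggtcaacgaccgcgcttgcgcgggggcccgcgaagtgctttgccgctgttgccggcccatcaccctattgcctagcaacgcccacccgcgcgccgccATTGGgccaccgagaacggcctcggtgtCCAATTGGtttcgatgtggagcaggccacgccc
Acacb (chr5:114303329-114303569, plus strand): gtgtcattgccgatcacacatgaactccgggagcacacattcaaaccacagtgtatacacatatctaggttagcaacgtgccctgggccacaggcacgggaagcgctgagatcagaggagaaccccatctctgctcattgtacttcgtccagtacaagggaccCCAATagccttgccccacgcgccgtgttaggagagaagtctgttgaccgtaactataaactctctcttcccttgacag

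Hadha and Hadhb, which encode the 2 subunits of the mitochondrial trifunctional protein, lie on opposite strands of chromosome 5 with their starts side by side, and the 48 bases shown are the longest run between them that falls in no annotated exon. The stretch holds 1 GC box. The 62 bases of Cpt1a hold 2 GC boxes, the 213 bases of Acadm hold 1 half-site, the 221 bases of Fasn hold 3 CCAAT matches of which a pair overlap, and the 241 bases of Acacb hold 1 CCAAT box. Over the whole windows of 250 bases before to 50 after the start, a GC box was present in 16 of 19 oxidation genes, in 3 of 8 synthesis genes and in 6 of 6 of the remaining genes, against 35.7% of all 32851 windows in the table. A CCAAT box was present in 9 of 19 oxidation genes, 5 of 8 synthesis genes and 2 of 6 others, against 37.4% of all windows. The half-site was present in the windows of Acadm and Acacb and in 4.72% of all windows. These matches describe the letters in the windows and say nothing of binding.

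Among the oxidation genes, 11 were called higher with LPS+NaBu than in control: Cpt1a, Cpt2 and Slc25a20 of the carnitine shuttle, Acadvl, Acads, Hadha, Hadhb, Hadh and Acaa2 of the mitochondrial spiral, and Etfb and Etfdh of electron transfer. Each of these was called higher against LPS as well. In LPS+NaBu against LPS, 40.2% of all genes tested were called higher and 37.8% lower. By role, 4 of 5 shuttle genes, 7 of 9 genes of the mitochondrial spiral and 2 of 3 electron transfer genes were called higher in LPS+NaBu against LPS. Of all 20 tested oxidation genes, 15 were called higher and 4 lower in LPS+NaBu against LPS, with a median log2 change of 0.71, where the median of all genes was 0.02. In LPS+NaBu against control 11 were higher and 5 lower, with 40.9% and 35.1% of all genes (median 0.59, all genes 0.09). In LPS against control 1 was higher and 10 were lower, with 25.2% and 30.8% of all genes (median -0.27, all genes -0.05). With the libraries scaled to the same sum these counts became 16 higher and 1 lower, 12 higher and 5 lower, and 0 higher and 18 lower. Among all 14808 genes that scaling gave 7417 higher and 4132 lower, 6359 and 4911, and 2273 and 7074 in the same order. Quantile normalisation gave 14 higher and 1 lower in LPS+NaBu against LPS, with 5886 higher and 6030 lower among all genes. No oxidation gene was called at least 2-fold lower in either comparison of LPS+NaBu, and 8 and 6 were called at least 2-fold higher, where 21.4% and 20.7% of all genes were.

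**Figure D1:**
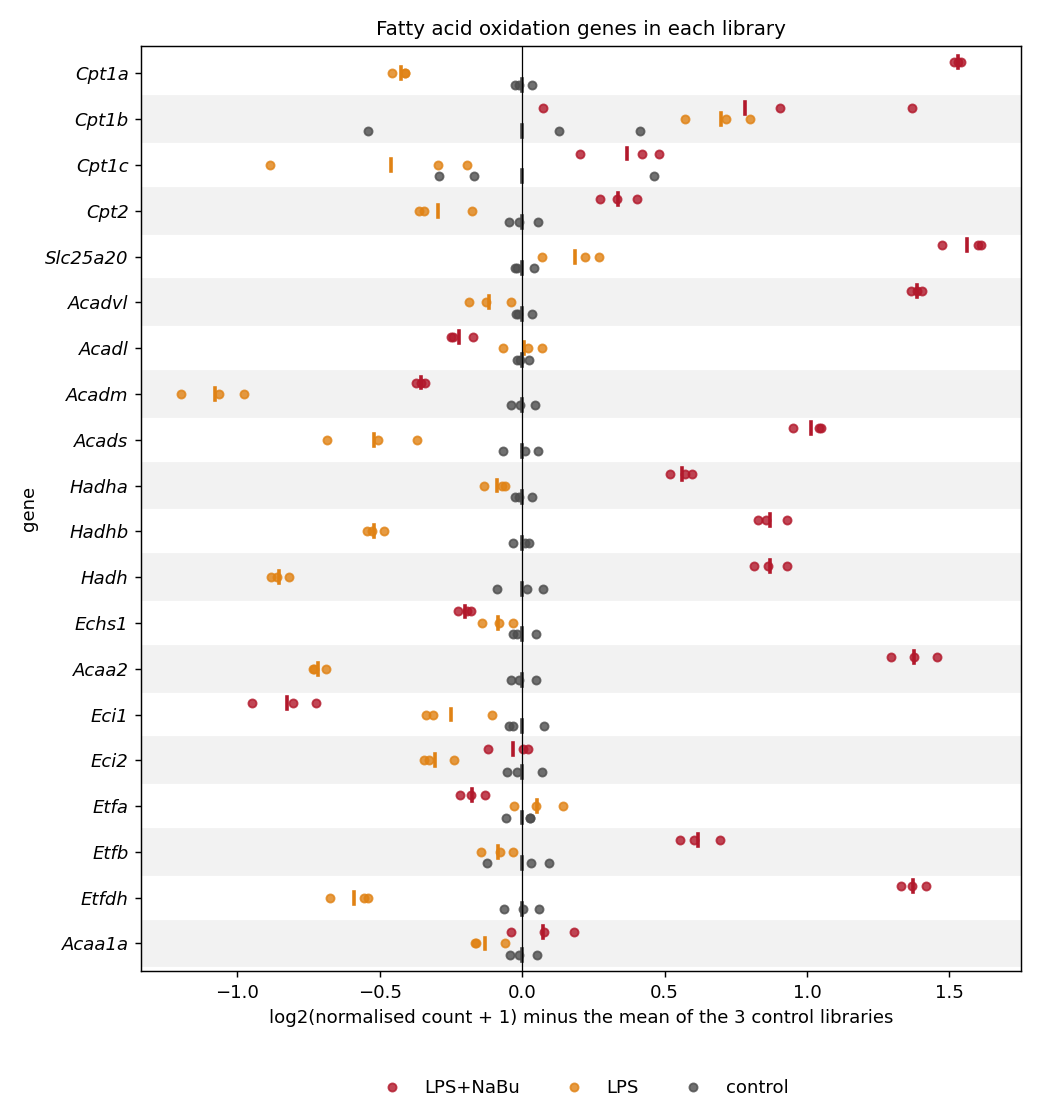
The 20 tested oxidation genes, 1 row a gene, with each library as a point at its log2(normalised count + 1) minus the mean of the 3 control libraries (short bars, group means; LPS+NaBu above LPS above control within a row). The LPS+NaBu means of Cpt1a, Slc25a20, Acadvl, Acads, Acaa2 and Etfdh lie furthest right, at about 1 or more, the points of Cpt1b are widely spread, and the LPS+NaBu means of Acadl, Acadm, Echs1, Eci1, Eci2 and Etfa lie left of 0.

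Cpt1a encodes the liver-type carnitine palmitoyltransferase 1 of the outer mitochondrial membrane, the step that malonyl-CoA inhibits (chr19:3371853-3437996, plus strand, GRCm39). It had 5723, 5667 and 5754 in the LPS+NaBu libraries, 1443, 1487 and 1489 in the LPS libraries and 1965, 1946 and 2028 in the control libraries (normalised counts). The 3 groups did not overlap, with LPS+NaBu highest and LPS lowest. Cpt1a rose 3.88-fold in LPS+NaBu against LPS (log2 change 1.96 ± 0.04, adjusted p = 3.68e-13) and 2.89-fold against control (1.53 ± 0.04, adjusted p = 3.29e-12), and it fell with LPS against control (-0.43 ± 0.04, adjusted p = 2.31e-06). Slc25a20, the carrier that exchanges acylcarnitine for free carnitine across the inner membrane, had 2495, 2481 and 2270.3 in the LPS+NaBu libraries, 857, 986 and 953 in the LPS libraries and 842, 807 and 803 in the control libraries. Its change was 1.37 ± 0.07 against LPS and 1.56 ± 0.07 against control, both called. LPS alone gave 0.19 ± 0.07 against control (adjusted p = 0.0315), a call that was lost without LPS library 2 or 3 or control library 2 or 3 (0.15 to 0.18) and that became -0.04 with the libraries scaled to the same sum.

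Cpt2, which turns acylcarnitine back into acyl-CoA inside the mitochondrion, moved less. It averaged 1784 ± 81.6 with LPS+NaBu, 1152 ± 83.2 with LPS and 1411 ± 50.6 in control, and its changes of 0.63 against LPS, 0.34 against control and -0.29 for LPS against control were all called. The other carnitine palmitoyltransferase 1 genes had far fewer reads. The muscle-type Cpt1b, close to the filter on low values, had 17.9, 6.69 and 12.7 in the LPS+NaBu libraries, 11, 11.7 and 9.89 in the LPS libraries and 8.75, 7.0 and 4.02 in the control libraries and was called in no comparison (changes of 0.08 ± 0.44, 0.78 ± 0.44 and 0.70 ± 0.44). Of its exon length 68.5% lies under another gene on the same strand, so its counts are uncertain. The brain-type Cpt1c averaged 157 ± 15.6 with LPS+NaBu, 89.6 ± 21.7 with LPS and 124 ± 37.2 in control, and only the change against LPS was called (0.83 ± 0.23, adjusted p = 0.00506). That call was lost under quantile normalisation (0.33), and the change against control of 0.37 became 0.60 and was called without control library 2. LPS against control (-0.46) was called with the libraries scaled to the same sum (-0.68).

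The acyl-CoA dehydrogenases open each round of oxidation and differ in the chain length they take. Acadvl, for very long chains, had 3500.0, 3458 and 3404 in the LPS+NaBu libraries, 1286, 1211 and 1161 in the LPS libraries and 1303, 1354 and 1309 in the control libraries. The LPS+NaBu libraries stood above all others, with changes of 1.50 ± 0.05 against LPS and 1.38 ± 0.05 against control, while LPS against control was not called (-0.12 ± 0.05, adjusted p = 0.0774), though it was with the libraries scaled to the same sum (-0.34) and without LPS library 1 (-0.16). Genes on the opposite strand lie over 38.2% of its exon length. Acads, for short chains, had 5149, 5115 and 4804 in the LPS+NaBu libraries, 1547, 1924 and 1749.8 in the LPS libraries and 2585, 2503 and 2374 in the control libraries, which gave 1.53 ± 0.07 and 1.01 ± 0.07 for LPS+NaBu against LPS and control and -0.52 ± 0.07 for LPS against control, all called. Acadm, for medium chains, lay in between. It had 2994, 2961 and 3028 in the LPS+NaBu libraries, 1834, 1948 and 1672 in the LPS libraries and 3957, 3732 and 3814 in the control libraries, so that the LPS libraries were lowest and the LPS+NaBu libraries lay between LPS and control without overlap. Acadm rose in LPS+NaBu against LPS (0.72 ± 0.06) but was lower than in control (-0.36 ± 0.06), and it fell 2.11-fold with LPS (-1.08 ± 0.06, adjusted p = 3.12e-09). Acadl, for long chains, averaged 3665 ± 109 with LPS+NaBu, 4302 ± 207 with LPS and 4276 ± 65.9 in control. It was called lower in LPS+NaBu against LPS and control (-0.23 and -0.22), but with the libraries scaled to the same sum the first became 0.05.

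The later steps of the spiral are the hydration, the second dehydrogenation and the thiolysis. Hadha and Hadhb were both called higher in LPS+NaBu against LPS and against control. Hadhb, the thiolase subunit, had 4065, 4146 and 4358 in the LPS+NaBu libraries, 1569, 1589 and 1634 in the LPS libraries and 2327, 2303 and 2237 in the control libraries, a rise of 1.39 ± 0.05 against LPS and 0.87 ± 0.05 against control and a fall of -0.52 ± 0.05 for LPS against control. Hadha, the hydratase and dehydrogenase subunit, averaged 13121 ± 358 with LPS+NaBu, 8362 ± 227 with LPS and 8884 ± 198 in control. Its changes were 0.65 ± 0.04 and 0.56 ± 0.04 for LPS+NaBu against LPS and control, and LPS against control was not called (-0.09 ± 0.04, adjusted p = 0.088), but was called with the libraries scaled to the same sum (-0.31) and under quantile normalisation (-0.29). Of the exon length of Hadha, 31% lies under genes on the other strand, and as no source used here says whether counting used strand, reads of such partners cannot be told apart.

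Hadh, which dehydrogenates shorter 3-hydroxyacyl-CoA, had 5589.7, 5347 and 5157 in the LPS+NaBu libraries, 1617, 1663 and 1594 in the LPS libraries and 3087, 2759 and 2971 in the control libraries. It was highest with LPS+NaBu and lowest with LPS, with changes of 1.72 ± 0.05, 0.87 ± 0.05 and -0.85 ± 0.05, all called. Acaa2, the mitochondrial thiolase that closes the round, had 3596, 3402 and 3209 in the LPS+NaBu libraries, 789, 812 and 787 in the LPS libraries and 1353, 1274 and 1301 in the control libraries. This was the largest rise among the oxidation genes in LPS+NaBu against LPS, 4.27-fold (2.09 ± 0.06, adjusted p = 2.02e-12), with 1.38 ± 0.06 against control and -0.72 ± 0.06 for LPS against control. Echs1, the short-chain enoyl-CoA hydratase, had 2678, 2701 and 2619 with LPS+NaBu, 2892, 2998 and 2777 with LPS and 3170.0, 3024 and 2996 in control. Its change of -0.12 ± 0.05 against LPS (adjusted p = 0.0391) was lost without any one of the LPS+NaBu libraries, without LPS library 1 or 2 or without control library 2 (-0.12 to -0.09). It was lost too with no filter or only these groups fitted (both -0.12) and under quantile normalisation (-0.04), and it became 0.16 with the libraries scaled to the same sum.

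The auxiliary enzymes, which handle double bonds of unsaturated chains, had small or opposite changes. Eci1, a mitochondrial enoyl-CoA isomerase, averaged 1369 ± 107 with LPS+NaBu, 2040.3 ± 185 with LPS and 2424 ± 114 in control, and was called lower in all 3 comparisons (-0.57, -0.83 and -0.25), the last of which was lost without LPS library 3 (-0.22) or control library 1 (-0.21). Eci2 averaged 1187 ± 62.2, 983 ± 39.7 and 1214 ± 54.2 in the same groups and was called higher in LPS+NaBu against LPS (0.27) and lower in LPS against control (-0.30). Decr1, the dienoyl-CoA reductase, is listed at 0 in all 9 libraries.

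Electrons from the dehydrogenases pass through the electron transfer flavoprotein, encoded by Etfa and Etfb, to its ubiquinone oxidoreductase Etfdh. Etfdh had 4747, 4624 and 4911 in the LPS+NaBu libraries, 1252, 1151 and 1264 in the LPS libraries and 1760.3, 1916 and 1841 in the control libraries, and rose 3.89-fold in LPS+NaBu against LPS (1.96 ± 0.06, adjusted p = 2.49e-12) and 2.59-fold against control (1.37 ± 0.06), with a fall of -0.59 ± 0.06 for LPS against control. The flavoprotein subunits had opposite calls. Etfb averaged 4797 ± 239 with LPS+NaBu, 2946 ± 113 with LPS and 3128 ± 239 in control and was called higher in both comparisons of LPS+NaBu (0.70 and 0.62), although 43.5% of its exon length is shared with an annotated neighbour on the same strand. Etfa averaged 6336 ± 194, 7433 ± 449 and 7154 ± 239.9 in these groups and was called lower (-0.23 and -0.18), a direction that became 0.05 in LPS+NaBu against LPS with the libraries scaled to the same sum.

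The peroxisomal genes on the list changed little or were barely detected. Acaa1a, a peroxisomal thiolase, averaged 9608 ± 733 with LPS+NaBu, 8335 ± 351 with LPS and 9112 ± 309 in control, and only its change against LPS was called (0.20 ± 0.06, adjusted p = 0.00513), a call that edgeR did not make (0.10). Its change against control of 0.07 was called with the libraries scaled to the same sum (0.12), under quantile normalisation (0.15) and without LPS+NaBu library 3 (0.13). That of LPS against control (-0.13) was called with the libraries scaled to the same sum (-0.36), under quantile normalisation (-0.32), when only these groups were fitted (-0.13), without LPS library 2 (-0.16) and without LPS+NaBu library 1 or 3 (-0.13). Ehhadh, the peroxisomal bifunctional enzyme, had 2.75, 2.23 and 9.07 in the LPS+NaBu libraries, 2.01, 0 and 2.82 in the LPS libraries and 0, 0 and 0 in the control libraries and did not pass the filter.

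The synthesis genes split. The genes of ATP citrate lyase and of the mitochondrial acetyl-CoA carboxylase and Elovl5 were higher with LPS+NaBu, while Acaca, Fasn, Elovl1, Elovl6, Scd2, Fads1 and Fads2 were lower, and these calls were made against LPS as well as against control. Of 11 synthesis genes, all tested, 4 were called higher and 7 lower in LPS+NaBu against LPS (median log2 change -0.24, all genes 0.02), of which 3 and 4 changed at least 2-fold. The shares of all genes called are those given above for the oxidation genes. At least 2-fold, 21.4% of all genes were called higher and 16.0% lower in LPS+NaBu against LPS. The 2-fold shares were 20.7% and 13.5% in LPS+NaBu against control, and 8.41% and 6.02% in LPS against control. In LPS+NaBu against control 3 were higher and 8 lower (median -1.04, all genes 0.09), and 2 and 6 changed at least 2-fold. In LPS against control 0 were higher and 10 lower (median -0.71, all genes -0.05), and 3 fell at least 2-fold. With the libraries scaled to the same sum the first comparison had 5 higher and 5 lower, and under quantile normalisation 6 higher and 5 lower, since Scd2 and Fads1 changed direction. Among all genes that comparison had 7417 higher and 4132 lower with the same sum, and 5886 and 6030 under quantile normalisation. Both scalings gave 3 higher and 8 lower in LPS+NaBu against control and 0 higher and 11 lower in LPS against control. Among all genes, LPS+NaBu against control had 6359 higher and 4911 lower with the same sum, and 5524 and 6104 under quantile normalisation. For LPS against control these counts were 2273 and 7074, and 3021 and 5312.

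**Figure D2:**
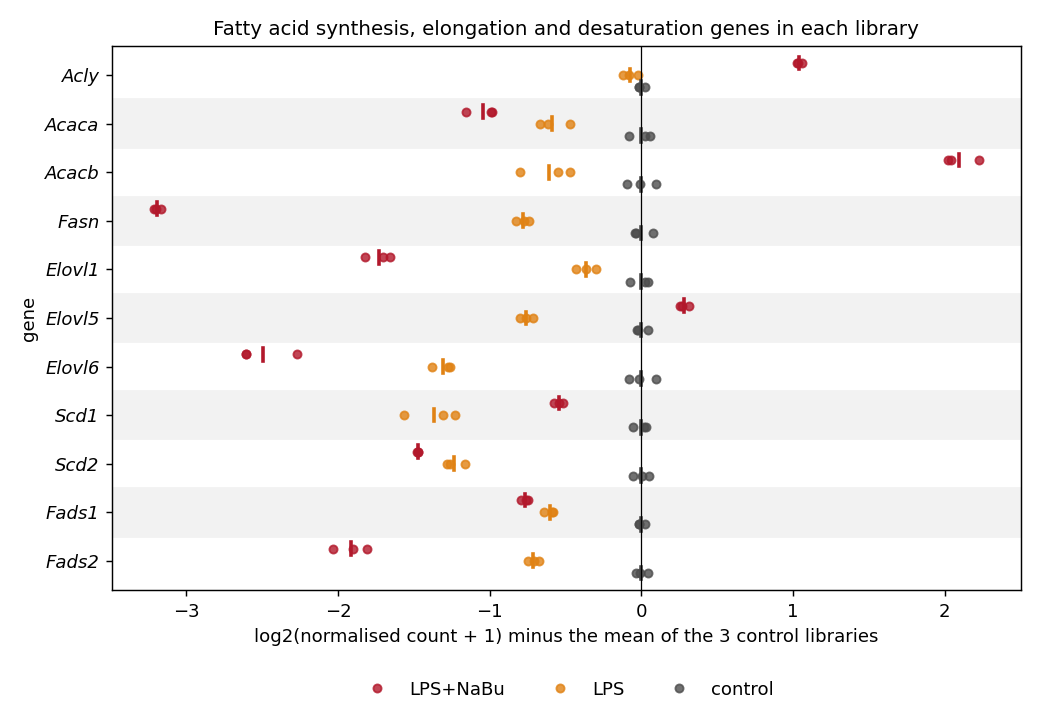
The 11 synthesis, elongation and desaturation genes, 1 row a gene, with each library as a point at its log2(normalised count + 1) minus the mean of the 3 control libraries (short bars, group means; LPS+NaBu above LPS above control within a row). All LPS points lie left of 0, and the LPS+NaBu points reach from about -3 for Fasn to about 2 for Acacb.

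Fasn encodes fatty acid synthase, the multienzyme that builds palmitate (chr11:120696672-120715995, minus strand, GRCm39). It had 4535, 4649 and 4492 in the LPS+NaBu libraries, 24368, 23568 and 25017 in the LPS libraries and 40640.2, 40560.3 and 44037 in the control libraries. No group overlapped another, and the order was LPS+NaBu lowest, LPS in between and control highest. The level with LPS+NaBu was 5.33-fold lower than with LPS (log2 change -2.41 ± 0.04, adjusted p = 8.75e-14) and 9.15-fold lower than in control (-3.19 ± 0.04, adjusted p = 7.64e-15), and with LPS it was 1.72-fold lower than in control (-0.78 ± 0.04, adjusted p = 7.58e-09). Acly, ATP citrate lyase, which supplies cytosolic acetyl-CoA, went the other way. It had 37569, 36725 and 36957 in the LPS+NaBu libraries, 17720.0, 16554 and 17024 in the LPS libraries and 17867, 17866 and 18339.9 in the control libraries, a rise of 1.12 ± 0.04 against LPS and 1.04 ± 0.04 against control with no call for LPS against control (-0.08 ± 0.04, adjusted p = 0.126). That last change was called with the libraries scaled to the same sum (-0.30) and under quantile normalisation (-0.37).

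The acetyl-CoA carboxylases make malonyl-CoA, Acaca in the cytosol for synthesis and Acacb at the mitochondrial surface, where its product restrains carnitine palmitoyltransferase 1. Acaca had 3503, 3121 and 3518 in the LPS+NaBu libraries, 5014, 4386 and 4535 in the LPS libraries and 6568, 7231 and 7090.3 in the control libraries, which gave -0.46 ± 0.06 against LPS, -1.04 ± 0.06 against control and -0.59 ± 0.06 for LPS against control, all called. Of its 100-base stretches 21.8% occur in another annotated gene, so its counts are less certain. Acacb had 530.2, 611 and 537 in the LPS+NaBu libraries, 88.2, 73.9 and 93.2 in the LPS libraries and 122, 129 and 139 in the control libraries. It rose 6.52-fold in LPS+NaBu against LPS (2.71 ± 0.13, adjusted p = 5.76e-10) and 4.28-fold against control (2.10 ± 0.13), and fell with LPS (-0.61 ± 0.13, adjusted p = 0.0017).

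Among the elongases, Elovl1 for saturated very long chains had 1829, 1778 and 1635 in the LPS+NaBu libraries, 4279.9, 4706 and 4481 in the LPS libraries and 5885, 5499.6 and 5965 in the control libraries, with falls of -1.36 ± 0.06 against LPS, -1.73 ± 0.06 against control and -0.37 ± 0.06 for LPS against control. Elovl6, which lengthens palmitate, had 420.1, 420.5 and 531 in the LPS+NaBu libraries, 1069, 987 and 1062 in the LPS libraries and 2546, 2740.3 and 2422 in the control libraries. It fell in all 3 comparisons (-1.19 ± 0.09, -2.50 ± 0.09 and -1.30 ± 0.09), and was 5.64-fold lower with LPS+NaBu than in control. Elovl5, which lengthens polyunsaturated chains, was the exception among the elongases listed. It had 7005, 7056 and 7295 in the LPS+NaBu libraries, 3465, 3363 and 3575 in the LPS libraries and 5780.2, 6049 and 5754 in the control libraries, with LPS lowest and LPS+NaBu above control (1.04 ± 0.04 against LPS, 0.28 ± 0.04 against control, -0.76 ± 0.04 for LPS against control).

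The stearoyl-CoA desaturases, which make monounsaturated fatty acids, were called lower than control in both treated groups. Scd2 had 22205, 22346 and 22302 in the LPS+NaBu libraries, 27616, 25443 and 25849 in the LPS libraries and 59698, 64055 and 62035 in the control libraries. Its fall against control was -1.47 ± 0.05 with LPS+NaBu and -1.24 ± 0.05 with LPS, and the smaller fall against LPS of -0.24 ± 0.05 became 0.04 with the libraries scaled to the same sum and 0.27 under quantile normalisation. Scd1 had 2731, 2670.1 and 2777 in the LPS+NaBu libraries, 1695, 1344 and 1606 in the LPS libraries and 3827, 4024 and 4065 in the control libraries, so that LPS+NaBu lay between LPS and control (0.82 ± 0.07 against LPS, -0.54 ± 0.07 against control, -1.37 ± 0.07 for LPS against control). The front-end desaturases Fads1 and Fads2 make highly unsaturated fatty acids and lie near each other on chromosome 19. Fads2 had 2868, 3068 and 2620.5 in the LPS+NaBu libraries, 6379, 6719.7 and 6570.0 in the LPS libraries and 10664, 10461 and 11059 in the control libraries, with falls of -1.20 ± 0.06, -1.91 ± 0.06 and -0.71 ± 0.06. Fads1 averaged 9478 ± 146 with LPS+NaBu, 10605 ± 227 with LPS and 16102 ± 267 in control. It fell against control with LPS+NaBu (-0.76) and with LPS (-0.60), while its change against LPS of -0.16 became 0.11 with the libraries scaled to the same sum and 0.14 under quantile normalisation.

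The 12 genes of activation, storage and uptake had no common direction. In LPS+NaBu against LPS, 6 were called higher and 6 lower (median log2 change -0.09, all genes 0.02), in LPS+NaBu against control 6 higher and 4 lower (median 0.17, all genes 0.09), and in LPS against control 7 higher and 4 lower (median 0.19, all genes -0.05). Of all genes tested, 40.2% were called higher and 37.8% lower in LPS+NaBu against LPS. The shares were 40.9% and 35.1% in LPS+NaBu against control and 25.2% and 30.8% in LPS against control. The counts of both LPS+NaBu comparisons lie near these shares. Acsl1, Acsl4, Plin2, Lipe and Fabp5 were called higher with LPS than in control and lower with LPS+NaBu than with LPS. The rise of Fabp5 with LPS was lost under several alternatives, as given with the gene. Both calls use the same LPS libraries, and the share of all genes with both calls was not counted.

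**Figure D3:**
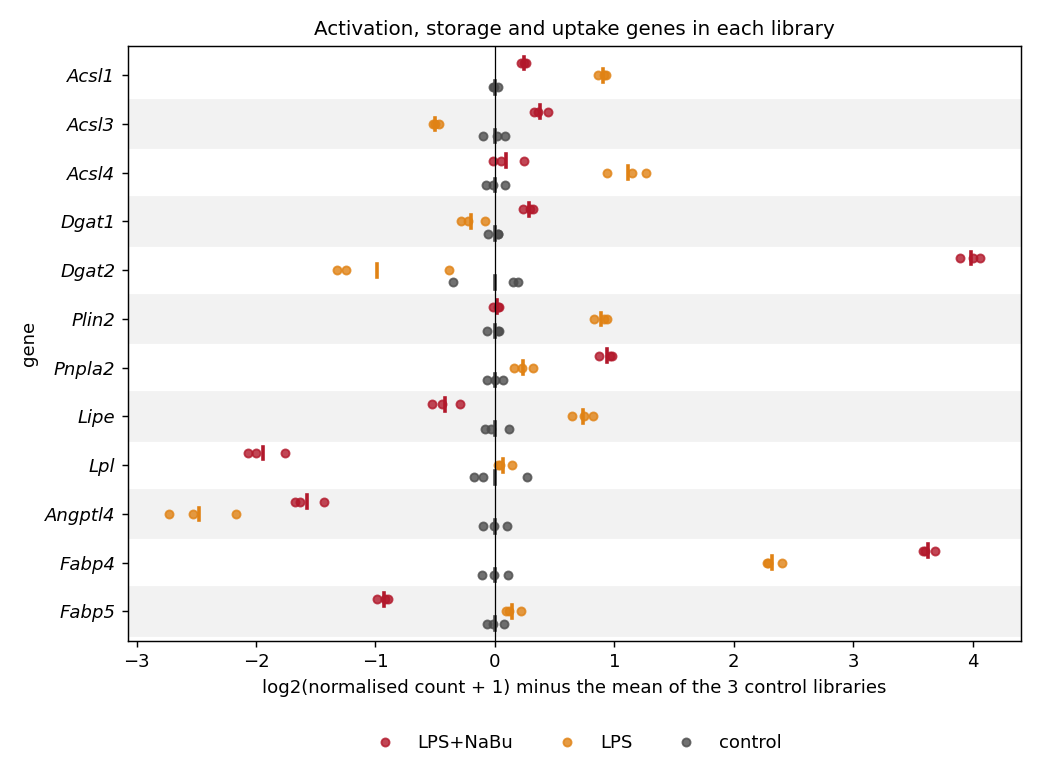
The 12 activation, storage and uptake genes, 1 row a gene, with each library as a point at its log2(normalised count + 1) minus the mean of the 3 control libraries (short bars, group means; LPS+NaBu above LPS above control within a row). Dgat2 and Fabp4 reach furthest right with LPS+NaBu, near 4, and Angptl4 furthest left with LPS, near -2.5.

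Dgat2 encodes an acyl-CoA:diacylglycerol acyltransferase that makes triglyceride (chr7:98802491-98831991, minus strand, GRCm39) and had the largest change of all 43 genes tested. It had 266, 277 and 247 in the LPS+NaBu libraries, 6.02, 11.7 and 5.65 in the LPS libraries and 17.5, 18 and 12.1 in the control libraries. The LPS+NaBu libraries lay far above the others, 31.4-fold over LPS (4.97 ± 0.30, adjusted p = 4.22e-09) and 15.9-fold over control (3.99 ± 0.30, adjusted p = 4.48e-08), folds on the log2(value + 1) scale that understate so low a gene. LPS was lower than control (-0.98 ± 0.30, adjusted p = 0.0133), a call that was lost when only these groups were fitted (adjusted p = 0.0845). Dgat1, an unrelated enzyme for the same reaction, averaged 1095 ± 33.9 with LPS+NaBu, 785 ± 56.8 with LPS and 899 ± 29.9 in control. Its rises of 0.48 against LPS and 0.29 against control were called, and its fall of -0.20 for LPS against control was lost without LPS library 1 or 3 or control library 1 or 3 (-0.18 to -0.15), with edgeR (-0.16) and under quantile normalisation (-0.16). Other genes on the opposite strand, Hsf1 the largest, lie over 54.6% of its exon length.

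Plin2 coats lipid droplets. It averaged 12256 ± 233 with LPS+NaBu, 22507 ± 898 with LPS and 12118 ± 469.6 in control, a rise with LPS (0.89 ± 0.04) and a lower level in LPS+NaBu against LPS (-0.88 ± 0.04), with no call against control (0.02 ± 0.04, adjusted p = 0.744). The lipases that release fatty acids from droplets went apart. Lipe, hormone-sensitive lipase, had 1278, 1153 and 1088 in the LPS+NaBu libraries, 2452, 2774 and 2623 in the LPS libraries and 1528, 1478 and 1699 in the control libraries, which gave -1.16 ± 0.08 against LPS, -0.42 ± 0.08 against control and 0.74 ± 0.08 for LPS against control. Pnpla2, adipose triglyceride lipase, averaged 5326 ± 209.8 with LPS+NaBu, 3276 ± 183 with LPS and 2774 ± 125 in control, and was called higher in all 3 comparisons (0.70, 0.94 and 0.24), the last of which became 0.01 and was not called with the libraries scaled to the same sum.

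The long-chain acyl-CoA synthetases activate fatty acids. Acsl4, which prefers arachidonic acid, had 7131, 7496 and 8547 in the LPS+NaBu libraries, 17340.0, 13811 and 15996 in the LPS libraries and 7149, 7644 and 6863 in the control libraries. LPS stood apart from the other groups, with a rise of 1.12 ± 0.08 against control and a lower level of -1.02 ± 0.08 in LPS+NaBu against LPS, while LPS+NaBu and control overlapped (0.09 ± 0.08, adjusted p = 0.311). Acsl1 averaged 3985 ± 58 with LPS+NaBu, 6293 ± 156 with LPS and 3367 ± 53.5 in control (-0.66 against LPS, 0.24 against control, 0.90 for LPS against control). Acsl3, which supplies growing droplets, averaged 4749 ± 201, 2581 ± 45.1 and 3651 ± 240.4 in these groups and was called higher against LPS and control and lower in LPS against control (0.88, 0.38 and -0.50). All changes of Acsl1 and Acsl3 were called.

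Lpl, lipoprotein lipase, which frees fatty acids from circulating triglyceride and is a normal product of macrophages, had the highest level per kilobase of the set with LPS and in control. It had 34252, 42342 and 35826 in the LPS+NaBu libraries, 158397, 145999.6 and 147726 in the LPS libraries and 126849, 173005 and 133882 in the control libraries. The level with LPS+NaBu was 4.04-fold lower than with LPS (-2.01 ± 0.11, adjusted p = 1.04e-09) and 3.84-fold lower than in control (-1.94 ± 0.11, adjusted p = 1.71e-09), and LPS against control was not called (0.07 ± 0.11, adjusted p = 0.589), except under quantile normalisation, where it was -0.48. Angptl4, a secreted inhibitor of that lipase, had 268, 226 and 232 in the LPS+NaBu libraries, 160.4, 108 and 124 in the LPS libraries and 776, 674 and 721 in the control libraries. It was lowest with LPS, 5.56-fold under control (-2.48 ± 0.14, adjusted p = 7.87e-09), and LPS+NaBu lay above LPS (0.90 ± 0.14) and below control (-1.58 ± 0.14).

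The cytosolic fatty acid binding proteins Fabp4 and Fabp5, encoded close together on chromosome 3, moved in opposite directions with LPS+NaBu. Fabp4 had 5198, 5595 and 5269.9 in the LPS+NaBu libraries, 2102, 2303 and 2118 in the LPS libraries and 468, 431 and 402 in the control libraries. It was the gene of the set with the largest rise with LPS, 5.01-fold over control (2.32 ± 0.07, adjusted p = 5.68e-12), and was higher still with LPS+NaBu, 2.46-fold over LPS (1.30 ± 0.07, adjusted p = 7.09e-10) and 12.3-fold over control (3.62 ± 0.07, adjusted p = 6.77e-14). Fabp5 had 4779.7, 4707 and 4495 in the LPS+NaBu libraries, 9659, 10347 and 9464 in the LPS libraries and 9391, 8517 and 8784 in the control libraries. It was lower with LPS+NaBu than with LPS (-1.07 ± 0.05) or in control (-0.93 ± 0.05). Its rise of 0.14 with LPS against control was lost without LPS library 2 or control library 2 or 3 (0.10 to 0.13) and became -0.08 with the libraries scaled to the same sum and -0.09 under quantile normalisation.

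Within a family the share of each member per kilobase of exon does not change when a library is scaled by a single factor. Quantile normalisation is not such a scaling. These shares are given as a description. Exon length merges all annotated transcripts, which lowers the level of genes with long alternative exons. Acacb made up 21.5, 26.1 and 21.6% of Acaca and Acacb together in the LPS+NaBu libraries, 3.08, 2.96 and 3.58% in the LPS libraries and 3.24, 3.12 and 3.42% in the control libraries. The share with LPS+NaBu was thus several times that of either other group, and these did not separate from each other. Dgat2 made up 15.3% ± 0.490 of both Dgat genes with LPS+NaBu, 0.731% ± 0.262 with LPS and 1.32% ± 0.296 in control. Scd1 took 11.3% ± 0.212 of Scd1 and Scd2 with LPS+NaBu, 5.78% ± 0.481 with LPS and 6.28% ± 0.124 in control, so Scd2 predominated in all 9 libraries. Fabp4 took 46% ± 1.19 of Fabp4 and Fabp5 with LPS+NaBu, 14.1% ± 0.179 with LPS and 3.48% ± 0.179 in control, and these did not overlap. Of Acsl1, Acsl3 and Acsl4, Acsl4 was the main member in every group, with 53.7% ± 1.43 with LPS+NaBu, 75.3% ± 1.90 with LPS and 58% ± 0.288 in control. Acsl5, whose values are given with the further genes, was left out of this sum, so these shares hold only among the genes named. Cpt1a took 95.3% ± 0.608, 89.6% ± 2.09 and 90.2% ± 2.65 of the carnitine palmitoyltransferase 1 genes in the same order of groups.

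**Figure D4:**
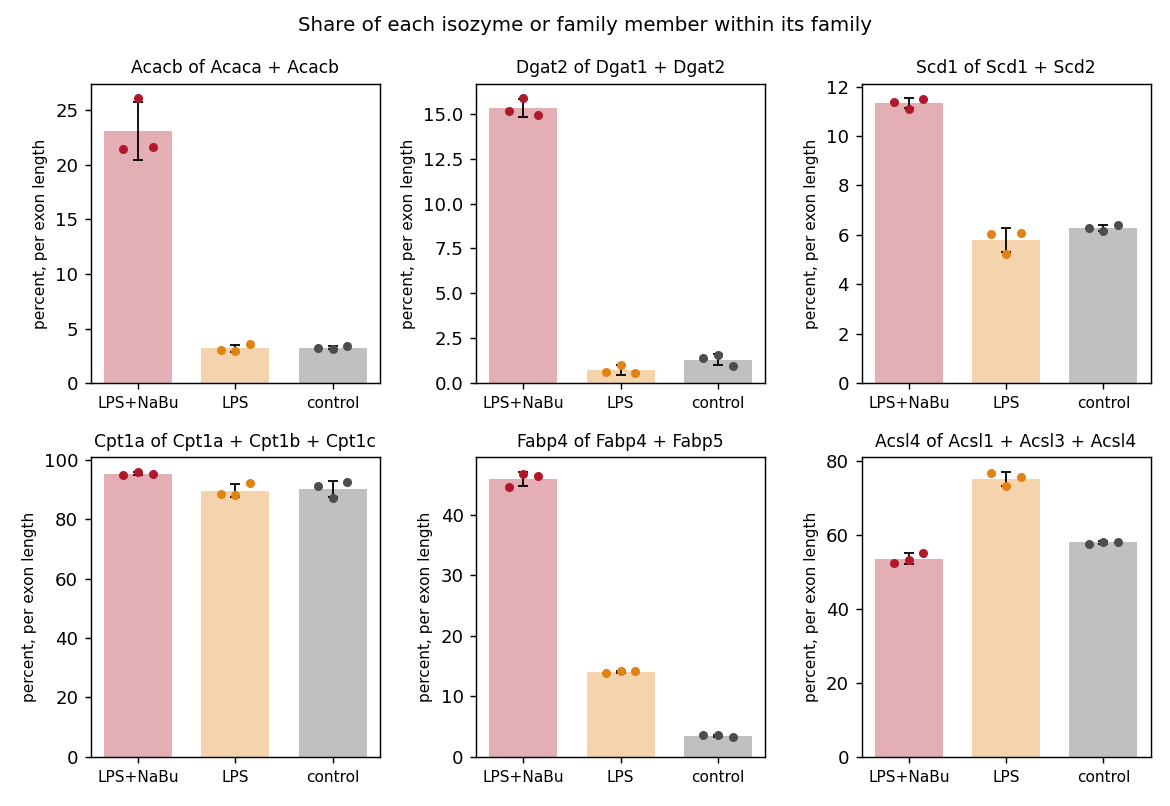
Share of 1 gene in the summed normalised count per kilobase of exon of the family members named above each panel, in percent (bars, mean of 3 libraries; error bars, SD; points, libraries). The shares of Acacb, Dgat2, Scd1 and Fabp4 are highest with LPS+NaBu, and that of Acsl4 is highest with LPS.

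Per kilobase of exon, the levels of the set spanned several orders of magnitude. With LPS+NaBu the highest were Etfb (3081 normalised counts per kilobase), Lpl (3065), Scd2 (2961) and Acly (2544). With LPS they were Lpl (12328), Scd2 (3494), Plin2 (2929) and Fabp5 (2679), and in control Lpl (11826), Scd2 (8228), Fasn (3566) and Fads1 (2875). Fasn, at 389 with LPS+NaBu and 2077 with LPS, was not among the highest with LPS+NaBu.

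**Figure D5:**
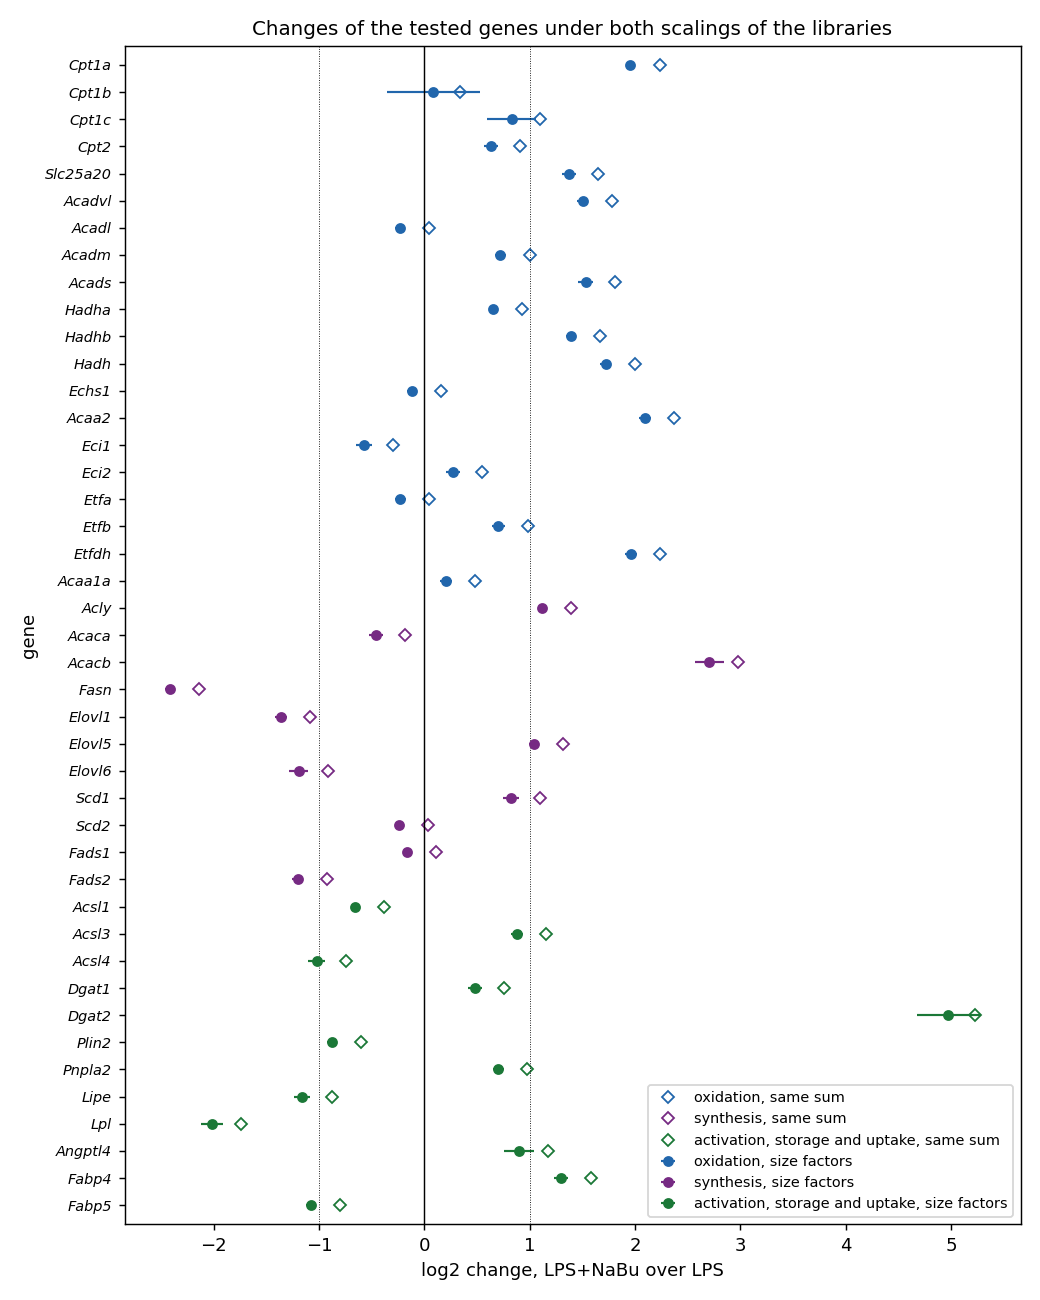
Log2 change in LPS+NaBu against LPS of the 43 tested genes, 1 row a gene, with the size factors (filled circles, bars ± standard error) and with the libraries scaled to the same sum (open diamonds); dotted lines mark 2-fold. Diamonds lie to the right by about 0.28 throughout, which takes Acadl, Echs1, Etfa, Scd2 and Fads1 across 0.

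Further genes of the same pathways, from lists that do not include the 45, were counted in the same fits. Over all genes, 40.2% were called higher and 37.8% lower in LPS+NaBu against LPS, 40.9% and 35.1% in LPS+NaBu against control, and 25.2% and 30.8% in LPS against control, and several of the counts below, that of uptake among them, lie near these shares. Of 28 tested genes of mitochondrial oxidation and ketone bodies, 20 were called higher and 3 lower in LPS+NaBu against LPS, 15 and 8 in LPS+NaBu against control, and 3 and 19 in LPS against control. In the first comparison Acot13, an acyl-CoA thioesterase, averaged 2746 ± 100.2 with LPS+NaBu and 849 ± 41.1 with LPS (1.69 ± 0.06), and the acyl-CoA dehydrogenase Acad11 averaged 1528 ± 53.4 and 505 ± 22 (1.60 ± 0.07). Acad12 rose likewise (1.58 ± 0.17), and Acot11, another thioesterase, fell (-1.45 ± 0.12). Of 21 peroxisomal genes, 13 were higher and 7 lower in LPS+NaBu against LPS, 13 and 5 against control, and 4 and 12 in LPS against control. Crot, the peroxisomal carnitine octanoyltransferase, had 2251, 2105 and 2360.1 in the LPS+NaBu libraries, 430.1, 451 and 366 in the LPS libraries and 749.8, 798 and 689 in the control libraries (change against LPS 2.43 ± 0.09). This stands beside the small changes of Acaa1a. Hao1, hydroxyacid oxidase, went the other way, with a rise with LPS (2.47 ± 0.16 against control) and a lower level in LPS+NaBu against LPS (-1.71 ± 0.16).

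Of 20 further tested genes of synthesis, elongation and desaturation, 11 were higher and 4 lower in LPS+NaBu against LPS, 8 and 7 against control, and 3 and 11 in LPS against control. Acss2, which makes acetyl-CoA from acetate, had 5809.7, 5772 and 5626 in the LPS+NaBu libraries, 1335, 1374 and 1241 in the LPS libraries and 1453, 1583 and 1577 in the control libraries (2.12 ± 0.05 against LPS). The dehydratases of the elongation cycle differed, with rises of Hacd3 (1.49 ± 0.04) and Hacd4 (2.34 ± 0.08) and a fall of Hacd1 (-1.65 ± 0.17). Of 30 further genes of triglyceride synthesis, droplets and lipolysis, 18 were higher and 8 lower in LPS+NaBu against LPS, 19 and 7 against control, and 8 and 10 in LPS against control. Mogat2, which makes diacylglycerol from monoacylglycerol, had 298, 306 and 235 in the LPS+NaBu libraries, 0, 0 and 0 in the LPS libraries and 0, 2.0 and 6.04 in the control libraries, at least 77.9-fold higher with LPS+NaBu than with LPS at a floor of 3 reads per library. Plin5, a droplet coat protein of oxidative tissues, had 177, 173 and 129.7 in the LPS+NaBu libraries, 2.01, 2.35 and 0 in the LPS libraries and 3.18, 2.0 and 2.01 in the control libraries. Cidea and Pnpla3 had no read in the LPS or control libraries and 34.4, 30.1 and 27.2 and 44, 37.9 and 21.8 with LPS+NaBu, at least 8.52-fold and 9.63-fold higher than with LPS. Mogat2, Plin5, Cidea and Pnpla3 passed the filter on low values only through the LPS+NaBu libraries, so these values are a description. The counts called higher with LPS+NaBu in this list include these genes, and those of the other lists may include such genes. Hilpda, an inhibitor of adipose triglyceride lipase, rose with LPS (2.43 ± 0.07 against control), and Lpin1, a phosphatidate phosphatase, fell (-1.93 ± 0.07). Of 18 further genes of uptake, binding and activation, 7 were higher and 6 lower in LPS+NaBu against LPS, 9 and 5 against control, and 3 and 6 in LPS against control. The scavenger receptor and fatty acid translocase Cd36 had 836, 855 and 898 in the LPS+NaBu libraries, 3814, 3579 and 3671 in the LPS libraries and 2035, 2286 and 2045 in the control libraries (-2.09 ± 0.06 against LPS), and Acsl5 had 2387, 2395 and 2295 in the LPS+NaBu libraries, 8978, 9568 and 9344 in the LPS libraries and 9556, 9709 and 9292 in the control libraries (-1.98 ± 0.04).

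Markers of the line and of other cells moved with the same groups. All 12 macrophage markers on the list were detected and all 12 were called lower in LPS+NaBu against LPS, where 37.8% of all genes were. In LPS+NaBu against control 1 was higher and 11 were lower (all genes, 40.9% and 35.1%). In LPS against control 8 were higher and 1 was lower (all genes, 25.2% and 30.8%). Their summed normalised counts were 233605 to 252909 with LPS+NaBu, 685789 to 728529 with LPS and 501783 to 519520 in control. Of 8 adipocyte markers, Lep and Ucp1 were at 0 in all 9 libraries and Adipoq had 0, 4.46 and 0 with LPS+NaBu and 0 elsewhere, while the sum was 134 to 158 with LPS+NaBu, 27.1 to 46.9 with LPS and 16 to 21.5 in control. Plin1, Cidea and Cidec, which the droplet list holds too, and Retn gave most of the sum with LPS+NaBu. Of 8 hepatocyte markers 5 were at 0 in all 9 libraries, Alb and Apob among them, and the sum was 30.3 to 40.2 with LPS+NaBu, 0 to 2.35 with LPS and 0 to 6.0 in control. The 8 fibroblast markers summed to 272 to 296 with LPS+NaBu, 13 to 18.8 with LPS and 6.36 to 12.1 in control, with Dcn at 0 in LPS+NaBu and Lum at 0 in all libraries. Sums for lymphocyte markers were 43.5 to 77.7, 11.3 to 24.6 and 16.7 to 28.0 in the same order, for muscle markers 126 to 141, 63.2 to 103 and 81.1 to 119, and for epithelial markers 46.8 to 75.6, 0 to 10.6 and 6.0 to 9.54. The part of these in the changes of the fatty acid genes was not tested.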

How the data were processed

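mRNA from 9 RAW264.7 libraries was sequenced by the study. The methods name Trimmomatic, HISAT2 and featureCounts on uniquely mapped reads, while STAR 2.7.7a, DESeq2 and mm39 appear in the processing notes of the submitters. Which aligner made the tables, and the strand setting, are not given in the sources used here. The deposited values, labelled FPKM by the authors, are a signal of gene counts divided by a DESeq2-type size factor: every value lay within 0.001 of a whole number of reads, so they carry no length correction.

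Genes with at least 10 in at least 3 libraries (14808) were tested with limma 3.58.1 (R 4.3.3, trend) on log2(value + 1), over all 9 libraries, with Benjamini-Hochberg adjustment over all genes. Fold changes on this scale understate those of low genes. The count tests edgeR 4.0.16 and DESeq2 1.42.0 on the recovered reads called 11621 and 11502 genes in LPS+NaBu against LPS, against 11558 with limma. Other alternatives were a pseudocount of 5, no filter, a minimum of 50, scaling to the same sum, quantile normalisation, fits of only the groups compared, the replicate number as a block, and leaving out each library. The fit was tested on simulated data in which a small part of the genes changed and the size factors were known. The simulation therefore did not test the scaling of the libraries. Intervals and floors cover counting error only.

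Members called at least 2-fold in any comparison (26) are given by library, and the others by means, ranges and counts, except that Cpt1b, Echs1 and Ehhadh are given by library too, a choice made after their values were seen. From each further list at most 4 genes per comparison were named, by size of change. Members and lists were chosen with earlier results of these data known. Exon lengths and coordinates are from GENCODE M39 (GRCm39), to which 38984 of 43629 genes matched. One gene of a further list is not reported here by name.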

Additional observations from a re-analysis of the deposited data

How the results depend on the processing

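Of 129 gene changes, 103 kept their call, and where called their direction, under each of the 18 alternatives in which they were tested. Changes called in neither fit were counted as kept whatever their sign. With the libraries scaled to the same sum, the log2 change in LPS+NaBu against LPS became 0.046 for Acadl, 0.16 for Echs1, 0.048 for Etfa, 0.038 for Scd2 and 0.11 for Fads1, and that in LPS against control became -0.0395 for Slc25a20, -0.22 for Acadl, -0.17 for Etfa and -0.084 for Fabp5. Quantile normalisation gave 0.27 for Scd2 and 0.14 for Fads1 in LPS+NaBu against LPS, and -0.48 for Lpl and -0.0859 for Fabp5 in LPS against control. Oxidation genes called lower in LPS+NaBu against LPS were 1 with either of these, against 4. Among all genes 4132 were lower there with the same sum and 6030 under quantile normalisation, against 5602. In LPS against control, the same sum gave 5 of the 45 genes higher, against 8, and 0 oxidation genes higher and 18 lower, against 1 and 10. Among all genes it gave 2273 higher and 7074 lower in LPS against control, against 3739 and 4568. The single oxidation call higher there (Slc25a20) was 0 when only these groups were fitted and under the replicate block, and ranged from 0 to 1 when 1 library was left out. The same sum also made calls in LPS against control for Cpt1c (-0.68), Acadvl (-0.34), Hadha (-0.31), Echs1 (-0.31), Etfb (-0.31), Acaa1a (-0.36) and Acly (-0.30). The shifts under the same sum follow from the sums of the libraries, and which scaling is nearer to RNA per cell was not tested.

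No pairing by replicate number was seen. Across groups, deviations from the group mean correlated at -0.044 to 0.020 for same-numbered libraries and at -0.069 to 0.076 for the others. With the replicate block 11464, 11124 and 7977 genes were called in LPS+NaBu against LPS, LPS+NaBu against control and LPS against control, and the calls lost among the 45 were Echs1 in the first and Slc25a20 and Dgat1 in the last. Leaving out 1 library gave 10610 to 11498, 10261 to 11433 and 7520 to 8343. DESeq2 changed no call among the 129, and edgeR lost 2. Genes with few reads (Cpt1b, Ehhadh) and 3 libraries a group limit what could be called.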

Other observations

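Regulators of lipid metabolism were counted as a further list. Of 28 tested, 15 were called higher and 5 lower in LPS+NaBu against LPS, where 40.2% and 37.8% of all genes were. In LPS+NaBu against control 14 were higher and 11 lower (all genes, 40.9% and 35.1%). In LPS against control 6 were higher and 14 lower (all genes, 25.2% and 30.8%). Among the fatty acid receptors of the PPAR family, Ppara and Pparg passed the filter on low values only through the LPS+NaBu libraries, so their difference is a description. Ppara had 52.3, 39 and 49 in the LPS+NaBu libraries, 0, 4.69 and 2.82 in the LPS libraries and 3.98, 2.0 and 2.01 in the control libraries (4.09 ± 0.60 against LPS). Pparg had 15.1, 11.2 and 20 in the LPS+NaBu libraries, 0, 2.35 and 0 in the LPS libraries and 4.77, 9.0 and 4.02 in the control libraries, a ratio of 20.0 between LPS+NaBu and LPS with an exact 95% interval of 5.27 to 169 that covers counting error only. Ppard had 6390.1, 6190.2 and 5815 in the LPS+NaBu libraries, 1596, 1904 and 1583 in the LPS libraries and 1115, 1149 and 1157 in the control libraries (2.43 ± 0.07 against control). Mlxipl, a carbohydrate-responsive activator of synthesis genes, had 82.5, 85.9 and 64.4 in the LPS+NaBu libraries, 10, 2.35 and 5.65 in the LPS libraries and 6.36, 14 and 2.01 in the control libraries (3.64 ± 0.57 against LPS), and Nr1h3, the liver X receptor alpha, had 93.5, 118 and 102 in the LPS+NaBu libraries, 378, 397 and 405 in the LPS libraries and 459.6, 351 and 376 in the control libraries (-1.90 ± 0.13 against LPS). Mlxipl too passed the filter on low values only through the LPS+NaBu libraries, so its difference is a description. The counts called higher with LPS+NaBu in this list include such genes. The level of Ppara, Pparg and Mlxipl rests on few reads, and no relation between these regulators and the enzymes was tested.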
